A study of Mus musculus with 6 samples.

Results

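Transcripts of the insulin and IGF receptors, their IRS adaptors and the secreted IGF-binding proteins were examined in V720, a line of mouse breast cancer cells labelled as mammary epithelium. The 10 genes were Igf1r, Insr, Irs1, Irs2, Igfbp2, Igfbp3, Igfbp4, Igfbp5, Igfbp6 and Igfbp7, and every probe set whose only annotated gene symbol was 1 of these was taken, which gave 25 of the 45037 probe sets on the arrays and 10 of the 18193 genes. Cells in DMEM with fetal calf serum, penicillin and streptomycin were given 1 µM PD0332991 (palbociclib, an inhibitor of the kinases CDK4 and CDK6) for 24 h, or vehicle for 24 h, with 3 arrays in each group, described by the submitters as biological triplicates. All cells were of the same line, so the values describe this line alone, and the serum, which itself contains IGFs and their binding proteins, and the antibiotics were common to both groups.

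IGF1 and IGF2 signal through the tyrosine kinase encoded by Igf1r, and insulin through the related kinase encoded by Insr. Both phosphorylate the docking proteins IRS1 and IRS2, which recruit phosphoinositide 3-kinase and so activate AKT and mTOR. IGF-binding proteins are secreted, hold IGFs in the medium or the matrix, and can limit or prolong their access to the receptor. IGF signalling acts in growth of the mammary ducts, and IGFBP5 is known for its increase in the mammary gland during involution.

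Of the 10 genes, 4 were higher with PD0332991 and none was lower. Igfbp7 rose 1.53-fold and Igfbp3 1.32-fold, while Insr and Igfbp5 rose by log2 fold changes of 0.15 and 0.14. Across the 18193 genes, limma called 9.81% higher and 11.2% lower at an adjusted p under 0.05 (21.0% in either direction). At an unadjusted p under 0.05, limma gave 5 of the 10 genes higher and 0 lower, against 16.4% and 16.9% of all genes. The median log2 fold change (log2 of intensity plus 16, PD0332991 over vehicle) was 0.09 for the 10 genes and 0.005 for all genes. The 3 PD0332991 values lay above all 3 vehicle values for 6 of the 10 genes, against 19.3% of all genes, and below them for 1, against 19.6% of all genes.

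**Figure D1:**
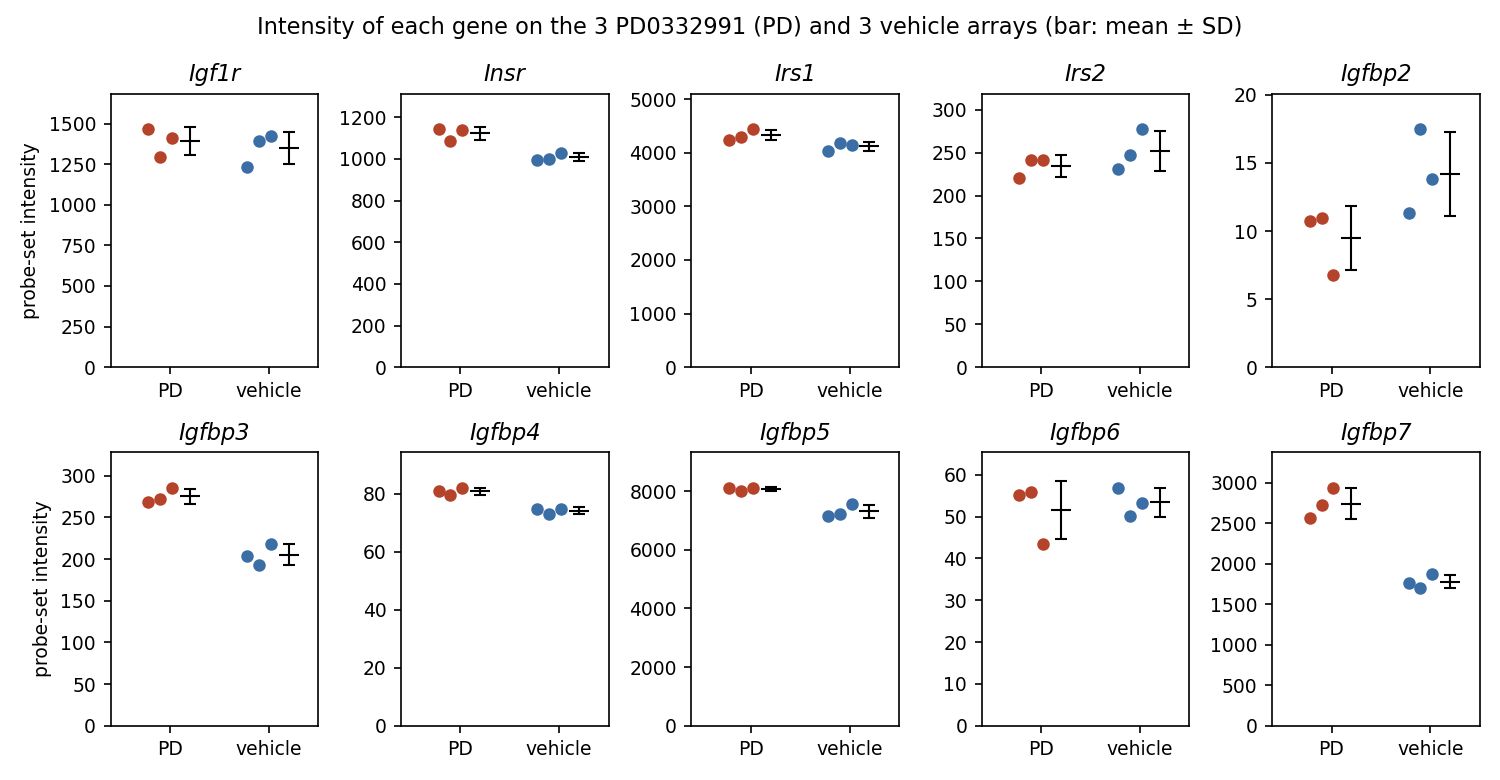
Probe-set intensity (linear scale from 0, own axis per gene) of the brightest probe set of each gene on the 3 PD0332991 arrays (left, red) and the 3 vehicle arrays (right, blue), with the mean ± SD beside the points. The groups lie apart for Igfbp7, with PD0332991 values from 2561 to 2938 and vehicle values from 1702 to 1871, and overlap for Igf1r, Irs2 and Igfbp6.

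Igfbp7 encodes a secreted protein that shares the amino-terminal IGF-binding domain of the family but has low affinity for IGFs, and it is also known as a product of senescent cells. Its intensity was 2561, 2723 and 2938 on the PD0332991 arrays, against 1765, 1702 and 1871 on the vehicle arrays. Every PD0332991 array was thus above every vehicle array. The log2 fold change was 0.62 (SE 0.07, 95% interval 0.46 to 0.78, limma adjusted p = 0.00226).

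A second Igfbp7 probe set, far dimmer, gave 99.1, 109 and 118 with PD0332991, against 66.4, 63.7 and 65.3 with vehicle. Its log2 fold change, also 0.62 (SE 0.06), was called when each probe set was tested on its own (limma adjusted p = 0.00318 over 45037 probe sets). The vehicle values of that probe set were below the array medians of 71.3 to 72.7 and the PD0332991 values above theirs of 69.6 to 71.1. The third probe set read between 1.00 and 1.62 with PD0332991 and between 1.69 and 6.37 with vehicle, which is near the lower end of the scale, and its log2 fold change of -0.16 was not called (limma adjusted p = 0.365). Averaging the 3 probe sets gave 0.36 for the gene (limma adjusted p = 0.00508).

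The start-site regions of the 2 genes with the largest rises are shown for reference, with that of Irs2, the only member whose window held an E2F motif. They are the 250 bases before the annotated start in RefSeq (GRCm38.p6, mouse, minus strand for all 3 genes), at chr5:77408046-77408295 for Igfbp7, chr11:7213924-7214173 for Igfbp3 and chr8:11008930-11009179 for Irs2. Capitals mark matches on either strand to the GC box CCGCCC or to the E2F motif TTTCCCGC.

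Igfbp7: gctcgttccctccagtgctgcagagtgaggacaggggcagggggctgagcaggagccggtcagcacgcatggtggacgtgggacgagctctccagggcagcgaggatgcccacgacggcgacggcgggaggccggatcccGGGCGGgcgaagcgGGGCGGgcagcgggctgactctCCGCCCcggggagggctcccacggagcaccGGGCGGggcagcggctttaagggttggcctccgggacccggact

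Igfbp3: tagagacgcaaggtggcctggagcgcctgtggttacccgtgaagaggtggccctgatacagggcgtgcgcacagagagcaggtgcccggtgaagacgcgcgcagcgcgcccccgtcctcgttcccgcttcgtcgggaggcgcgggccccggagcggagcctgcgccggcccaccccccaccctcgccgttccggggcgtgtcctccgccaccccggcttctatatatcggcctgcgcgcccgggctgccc

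Irs2: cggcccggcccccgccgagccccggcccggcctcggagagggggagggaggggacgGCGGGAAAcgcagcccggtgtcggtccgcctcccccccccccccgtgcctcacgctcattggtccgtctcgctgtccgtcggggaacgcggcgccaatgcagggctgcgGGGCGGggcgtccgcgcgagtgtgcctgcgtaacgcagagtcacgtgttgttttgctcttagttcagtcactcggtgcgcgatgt

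Igfbp7 had 4 GC boxes, whose first bases lay at -110, -96, -74 and -44 relative to the start, and Igfbp3 had none of the motifs searched. In Irs2, the E2F motif began at -194 on the opposite strand and a GC box at -85, with no overlap. RefSeq held windows for 9 of the 10 genes, 10 windows in all since Igfbp2 had 2. GC boxes occurred in 5 of these 10 windows of 300 bases (250 before to 50 after the start), against 35.7% of 32851 such windows genome-wide. The motif TTTCCCGC occurred in 1 of 10, against 1.07% of all windows. Neither TTTGGCGC, another E2F motif (0.514% of all windows), nor the FOXO motif GTAAACA (3.65%) was found in the 10 windows. A match describes these letters only, and the start used in V720 cells was not measured here.

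Igfbp3 encodes the main carrier of IGFs in blood, and is a known target of p53 and of TGF-beta. It read 269, 272 and 286 with PD0332991, against 204, 193 and 218 with vehicle. All 3 treated arrays were above all 3 vehicle arrays. The log2 fold change was 0.40 (SE 0.05, 95% interval 0.26 to 0.53, limma adjusted p = 0.0056).

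Its other probe set, whose probes may be shared with other transcripts (suffix s), read 156, 163 and 167 with PD0332991, against 134, 137 and 147 with vehicle. The groups were again apart, by less than on the first probe set, with a log2 fold change of 0.20 (SE 0.05) that was not called over all probe sets (limma adjusted p = 0.0559). Igfbp3 lost its call when arrays were centred on the 9 bacterial and phage spike-in probe sets added at hybridization (log2 fold change 0.27, limma adjusted p = 0.179, and 0.35 with adjusted p = 0.091 when vehicle replicate 1 was also left out).

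Igfbp5 encodes a protein that binds IGFs in the extracellular matrix. It read 8099, 8003 and 8124 with PD0332991, against 7156, 7241 and 7576 with vehicle, and the groups did not overlap. The log2 fold change was 0.14 (SE 0.04, 95% interval 0.05 to 0.23, limma adjusted p = 0.0484). A dimmer Igfbp5 probe set read 327, 342 and 349 with PD0332991, against 361, 296 and 346 with vehicle, and these groups overlapped. Its log2 fold change was 0.03 (SE 0.08, limma adjusted p = 0.883 over all probe sets). In that fit over all probe sets the brighter probe set was not called either (limma adjusted p = 0.0871). The brighter probe set also carries the suffix s, and without shared-probe sets the gene was not called (log2 fold change 0.03, limma adjusted p = 0.868). Its call was also lost without any 1 of the 6 arrays (limma adjusted p from 0.0561 to 0.124).

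Igfbp4, Igfbp6 and Igfbp2 were dim and were not called, although Igfbp4 was called higher with quantile normalization (0.14, limma adjusted p = 0.0316). Igfbp4, whose protein is cleaved by the protease PAPPA, read 80.95, 79.6 and 82.1 with PD0332991, against 74.9, 72.8 and 74.8 with vehicle, on the only 1 of its 6 probe sets that exceeded the array median on every array. These groups lay apart by a small amount, with a log2 fold change of 0.10 (95% interval 0.02 to 0.18, limma adjusted p = 0.084). The other 5 Igfbp4 probe sets had log2 fold changes from -0.19 to -0.01 and overlapping groups.

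Igfbp6, whose protein prefers IGF2 to IGF1, read 55.2, 55.9 and 43.5 with PD0332991, against 56.9, 50.1 and 53.2 with vehicle. The log2 fold change of Igfbp6 was -0.04 (95% interval -0.26 to 0.17). Igfbp2, whose protein also carries an integrin-binding motif, read 10.7, 11.0 and 6.75 with PD0332991, against 11.3, 17.5 and 13.8 with vehicle. Igfbp2 was the only gene of the 10 with all its treated values below all its vehicle values, at intensities far under the array median, and its log2 fold change of -0.24 (95% interval -0.50 to 0.01) was not called (limma adjusted p = 0.159).

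Insr, the insulin receptor, read 1143, 1085 and 1141 with PD0332991, against 993, 1002 and 1030.1 with vehicle. The groups did not overlap, and the log2 fold change was 0.15 (SE 0.04, 95% interval 0.06 to 0.25, limma adjusted p = 0.042). Its 2 dimmer probe sets had log2 fold changes of 0.02 and -0.05 with overlapping groups. Tested over all probe sets, the brightest Insr probe set was not called (limma adjusted p = 0.0753). As with Igfbp5, the call was lost without any 1 of the 6 arrays (limma adjusted p from 0.0565 to 0.12).

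Igf1r, the receptor of IGF1 and IGF2, read 1466, 1297 and 1409 with PD0332991, against 1234, 1395 and 1422 with vehicle on its brightest probe set. These values overlapped, with a log2 fold change of 0.04 (SE 0.07, 95% interval -0.14 to 0.23, limma adjusted p = 0.745). A probe set of intermediate brightness read 300.3, 306 and 295 with PD0332991, against 257, 278 and 266 with vehicle. There the groups lay apart, with a log2 fold change of 0.16 (SE 0.05, limma adjusted p = 0.0747 over all probe sets). The other bright Igf1r probe set gave 0.15 (limma adjusted p = 0.233), and 2 probe sets below the array median gave 0.12 and -0.06.

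The adaptor genes were not called. Irs1 read 4246, 4299 and 4439 with PD0332991, against 4031, 4182 and 4139 with vehicle, 3 values just above 3 values, with a log2 fold change of 0.07 (SE 0.04, 95% interval -0.02 to 0.16, limma adjusted p = 0.246). Irs2, whose transcription is known to be raised by FOXO factors, read 220.2, 242 and 241 with PD0332991, against 231, 248 and 277 with vehicle. The Irs2 groups overlapped, and the log2 fold change was -0.10 (SE 0.08, 95% interval -0.28 to 0.09, limma adjusted p = 0.448). Both adaptors had a single probe set.

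Tested one by one over all probe sets, 3 of the 25 probe sets were called higher, 2 of Igfbp7 and 1 of Igfbp3, and limma called none lower, against 6.00% higher and 8.19% lower (14.2% in either direction) among 45037 probe sets. At an unadjusted p under 0.05 these numbers were 8 and 0 of the 25, against 12.6% and 15.5% of all probe sets. The groups did not overlap, with PD0332991 above, for 9 of the 25 probe sets (15.5% of all probe sets) and, with PD0332991 below, for 2 (18.5% of all probe sets). Of the 25, 13 exceeded the array median on all 6 arrays and 11 on none.

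**Figure D2:**
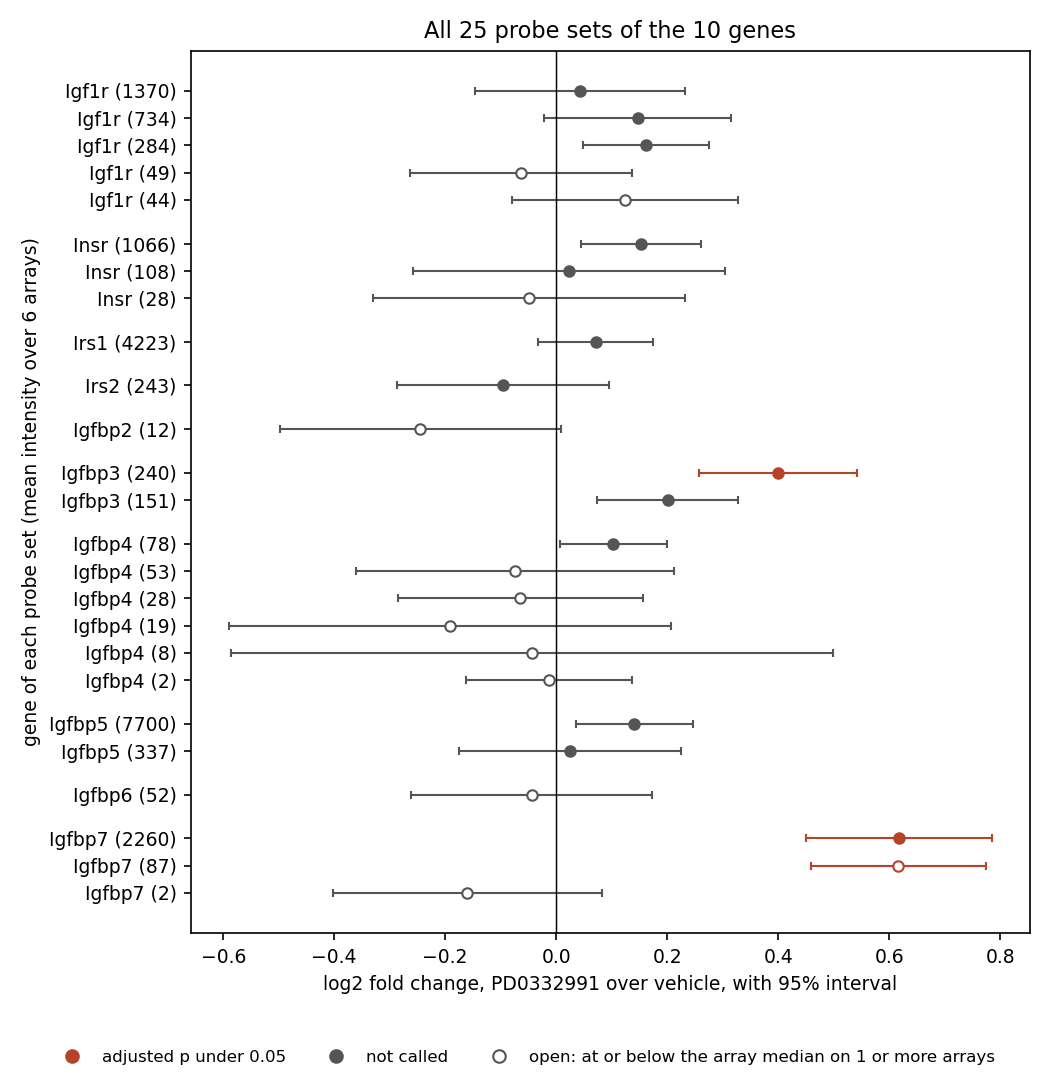
Log2 fold change (horizontal, PD0332991 over vehicle) with its 95% interval for each of the 25 probe sets, grouped by gene and ordered by brightness, with the mean intensity in brackets. Red marks a call over all 45037 probe sets, and open symbols mark probe sets not above the array median on every array. The 2 brighter Igfbp7 probe sets coincide at 0.62, while the 5 dimmer Igfbp4 probe sets lie between -0.19 and -0.01.

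The arrays were at a like level, with median intensities of 69.6 to 71.1 with PD0332991 and 71.3 to 72.7 with vehicle. Spike-in means (log2) were 10.00 to 10.05 with PD0332991 and 9.74 to 10.03 with vehicle, the lowest being vehicle replicate 1, so that spike-in centring moved the median of all genes to -0.12. Over all genes, 1785 were higher and 2035 lower. These numbers were 2138 and 1618 with centring on the array median, 240 and 1475 with spike-in centring, and 412 and 1159 with spike-in centring without vehicle replicate 1. Igfbp7 was then the only one of the 10 genes called higher, at a log2 fold change of 0.49 over all arrays (limma adjusted p = 0.0164), and Igfbp2 was called lower (-0.37, limma adjusted p = 0.0483) with all arrays but not without vehicle replicate 1 (-0.36, limma adjusted p = 0.0612). Under spike-in centring the log2 fold changes of Igf1r, Irs1 and Igfbp4 turned negative, at -0.08, -0.06 and -0.02. Ratios of 3′ to 5′ control probe sets were 0.980 to 1.01 with PD0332991 and 0.927 to 0.990 with vehicle for Gapdh, and 1.34 to 1.39 with PD0332991 and 1.31 to 1.40 with vehicle for beta-actin, and their part in the results was not tested.

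**Figure D3:**
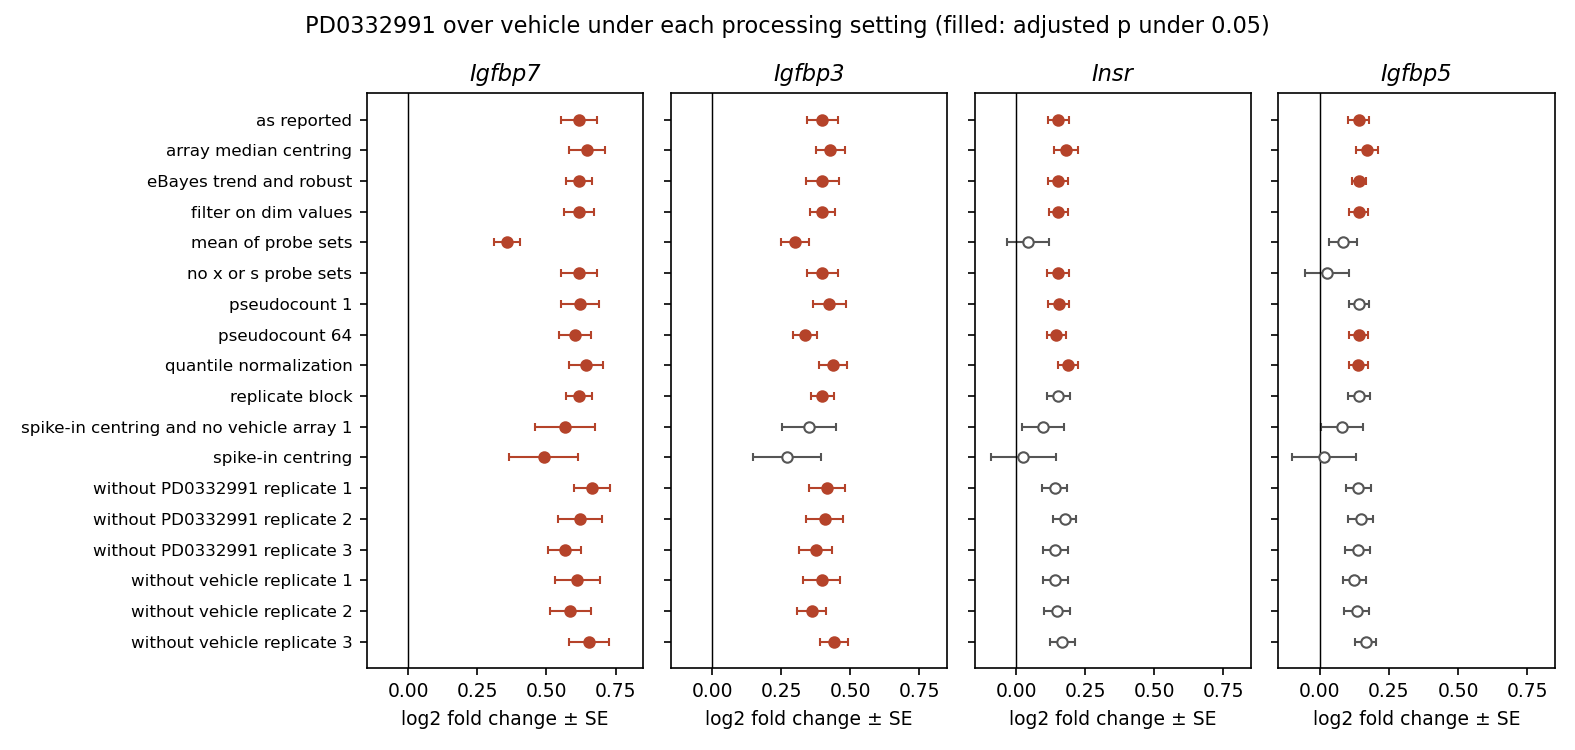
Log2 fold change ± SE (horizontal) of the 4 genes called higher, under the reported setting and 17 alternatives (rows). Filled red symbols mark an adjusted p under 0.05. Igfbp7 is filled in every row, with values from 0.36 to 0.66, and Igfbp3 in all but the spike-in rows. Insr and Igfbp5 are open in the 6 rows that leave out an array and in the replicate-block, mean-of-probe-sets and spike-in rows. Igfbp5 is also open without shared-probe sets and with a pseudocount of 1.

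Several members are also made by stromal cells, so markers of other cell types were read on the same arrays. The epithelial markers Krt8 and Krt18 read 10596 and 12866 with PD0332991 and 9981 and 12265 with vehicle (means, n = 3), and Epcam 9662 and 9635, while Krt19 read at most 2.27 on any array. Of 9 luminal markers, 2 were called higher and 1 lower, against 9.81% and 11.2% of all genes. The tight-junction gene Cldn4 was higher by 0.62 on the log2 scale (limma adjusted p = 0.0145), Krt7 was higher by 0.20 (limma adjusted p = 0.0146) and the epithelial transcription factor gene Elf3 was lower (-0.40, limma adjusted p = 0.0283). Of 8 fibroblast markers, limma called none higher and 1, Pdgfra, lower, against 9.81% and 11.2% of all genes. At an unadjusted p under 0.05 (limma) the numbers were 0 and 1, against 16.4% and 16.9% of all genes. Of these 8 markers, 6 were below the array median on every array, and the summed intensity was 312 to 345 with PD0332991 and 356 to 403 with vehicle. All 7 endothelial markers were below the array median on every array, with sums of 165 to 174 with PD0332991 and 163 to 174 with vehicle. Among these 7, none was called higher and 1, Emcn, was called lower, against 9.81% and 11.2% of all genes. Of 8 leukocyte markers 3 were higher and none lower (limma, and likewise at an unadjusted p under 0.05), against the 9.81% and 11.2% of all genes, with sums of 614 to 633 with PD0332991 and 500.4 to 550.3 with vehicle. The macrophage markers Cd68 and Adgre1 averaged 308 and 126 with PD0332991 and 230.1 and 105 with vehicle (log2 fold changes 0.40 and 0.23, limma adjusted p = 0.00874 and 0.0384), above the array median on every array. Csf1r, also a macrophage marker and above the array median on every array, was not called (0.05, limma adjusted p = 0.727), and its groups overlapped. The myeloid markers Itgam and Lyz2 were not called either, with log2 fold changes of 0.11 and -0.11. The pan-leukocyte marker Ptprc was also called higher (0.31, limma adjusted p = 0.0146) but was below the array median on every array, as were 4 others, the T cell marker Cd3e among them. Markers named with a call were chosen after their values were seen, and the part of any marker list in the rise of Igfbp7 and Igfbp3 was not tested. In RNA from whole cultures, a change in the number of cells of a type and a change in RNA per cell cannot be told apart.

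The rest of the insulin and IGF pathway was read from 7 lists of 92 entries, of which 86 were measured and 6 were not analysed here. With PD0332991, 17 of the 86 genes were higher and 5 lower by limma, against the 9.81% and 11.2% of all genes given above, and the median log2 fold change was 0.04. The number higher was 5, 8 and 7 without PD0332991 replicates 1, 2 and 3, 4, 7 and 10 without vehicle replicates 1, 2 and 3, and 1 with spike-in centring.

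Among ligands, other receptors and carriers, 3 of 8 genes were higher and none lower, against 9.81% and 11.2% of all genes. At an unadjusted p under 0.05 (limma) the numbers were 3 and 0, against 16.4% and 16.9% of all genes. The median log2 fold change was 0.16. The number higher was 0 without PD0332991 replicate 1, vehicle replicate 1 or vehicle replicate 2 and with either spike-in centring, and 1 without PD0332991 replicate 2 or 3. Igf2, which encodes the fetal ligand, read 10.54, 14.5 and 10.2 with PD0332991, against 2.05, 1.36 and 6.10 with vehicle. All these Igf2 values were far below the array median, and the log2 fold change of 0.54 (SE 0.11, limma adjusted p = 0.0227) was 1.76 with a pseudocount of 1 (limma adjusted p = 0.0535). Another Igf2 probe set read 1 on every PD0332991 array and 1, 1.73 and 1 with vehicle. Its log2 fold change was -0.02 (limma adjusted p = 0.804 over all probe sets). Ins2, an insulin gene, averaged 244 ± 16.7 with PD0332991 and 193 ± 6.34 with vehicle (SD, n = 3 each, limma adjusted p = 0.0153) on its single probe set, whose probes may cross-hybridize (suffix x).

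IGFBP proteases and their inhibitors had 3 of 8 genes higher and none lower, against 9.81% and 11.2% of all genes, with a median of 0.23. At an unadjusted p under 0.05 (limma) the numbers were 5 and 0, against 16.4% and 16.9% of all genes. The number higher was 0 without PD0332991 replicate 2, vehicle replicate 1 or vehicle replicate 2 and with the replicate number as a block, and 1 without any other array. It was 1 with spike-in centring, and 0 with spike-in centring without vehicle replicate 1. Htra1, a secreted serine protease that can cleave IGFBP5, read 241, 376 and 320 with PD0332991, against 167, 136 and 187 with vehicle. The groups were apart but the treated arrays were widely spread, with a log2 fold change of 0.86 (SE 0.18, limma adjusted p = 0.0237), and a further Htra1 probe set gave 0.89. Ctsd, the lysosomal protease cathepsin D, averaged 5877 ± 167 with PD0332991 and 5252 ± 86.8 with vehicle (SD, n = 3 each, log2 fold change 0.16, limma adjusted p = 0.0333).

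Among other adaptors and receptor phosphatases, 3 of 18 genes were called higher and 1 lower, against 9.81% and 11.2% of all genes. At an unadjusted p under 0.05 (limma) the numbers were 4 and 2, against 16.4% and 16.9% of all genes. With either spike-in centring 0 were called higher and 0 lower, and the number lower was also 0 with the replicate number as a block. Without vehicle replicate 1 only 1 was higher, and the lower call was lost on leaving out any 1 array other than PD0332991 replicate 2. Shc1, an adaptor that links receptor kinases to RAS, averaged 713 ± 77.6 with PD0332991 and 503 ± 20.9 with vehicle (SD, n = 3 each, log2 fold change 0.48, limma adjusted p = 0.0127), and its dimmer probe set gave 0.09. Ptpn1, the phosphatase that dephosphorylates the insulin receptor, averaged 1398 ± 40.1 with PD0332991 and 1179 ± 18.2 with vehicle (SD, n = 3 each, log2 fold change 0.24, limma adjusted p = 0.00896), and its other probe set gave 0.27. Ptpn2, a close relative of Ptpn1, fell by 0.16 on the log2 scale (SE 0.03, limma adjusted p = 0.0232) on its brightest probe set. Its other 3 probe sets gave -0.11, 0.03 and 0.07, none called, and the mean of probe sets was not called (-0.04, limma adjusted p = 0.562).

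In the PI3K and AKT list, 2 of 18 genes were called higher and 1 lower, against 9.81% and 11.2% of all genes, with a median of -0.005. At an unadjusted p under 0.05 (limma) the numbers were 2 and 5, against 16.4% and 16.9% of all genes. Lower calls numbered 5 with eBayes trend and robust settings and 5 with the filter on dim values. The number higher was 0 without PD0332991 replicate 1 or vehicle replicate 3 and 1 without any other array, and the number lower was 0 without vehicle replicate 1. With the replicate number as a block, and also with spike-in centring, 0 were higher and 0 lower. With spike-in centring without vehicle replicate 1, 1 was higher and 0 lower. Pik3r3, a regulatory subunit of phosphoinositide 3-kinase, averaged 1749 ± 46.5 with PD0332991 and 1291 ± 133 with vehicle (SD, n = 3 each, log2 fold change 0.44, limma adjusted p = 0.0144). Trib3, a pseudokinase that binds AKT, rose by 0.23 on the log2 scale (limma adjusted p = 0.036), on a probe set with the suffix x. Neither this probe set nor the dimmer one was called over all probe sets (limma adjusted p = 0.0555 and 0.0559). The Trib3 call was lost under 8 of 17 alternatives. Phlpp2, a phosphatase of AKT, averaged 387 ± 17.5 with PD0332991 and 466 ± 13.5 with vehicle (SD, n = 3 each, log2 fold change -0.26, limma adjusted p = 0.0149), while a probe set with intensities near 10 gave 0.34.

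In the TSC and mTOR list, 2 of 15 genes were called higher and 1 lower, against 9.81% and 11.2% of all genes. At an unadjusted p under 0.05 (limma) the numbers were 4 and 2, against 16.4% and 16.9% of all genes. The number higher was 1 on leaving out any 1 array other than vehicle replicate 3, and 0 with either spike-in centring. Ddit4, a stress-induced inhibitor of mTORC1, averaged 3604 ± 171 with PD0332991 and 2888 ± 87.9 with vehicle (SD, n = 3 each, log2 fold change 0.32, limma adjusted p = 0.00879). Sesn2, another inhibitor of mTORC1, rose by 0.16 (limma adjusted p = 0.048), and its dimmer probe set gave 0.35. Tested over all probe sets, neither the brighter nor the dimmer one was called (limma adjusted p = 0.0799 and 0.0961). The Sesn2 call was lost under 11 of 17 alternatives, among them each array left out (limma adjusted p from 0.052 to 0.133). Eif4ebp2, which encodes a repressor of cap-dependent translation that mTORC1 inactivates, averaged 788 ± 45.9 with PD0332991 and 988 ± 38.1 with vehicle (SD, n = 3 each, log2 fold change -0.32, limma adjusted p = 0.013), while its 4 dimmer probe sets gave -0.14 to 0.18 and their mean with the brightest was not called (-0.09, limma adjusted p = 0.458).

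Of 17 FOXO factors and genes known as FOXO targets, 4 were called higher and 2 lower, against 9.81% and 11.2% of all genes, and 11 were not called. Their median was -0.01. At an unadjusted p under 0.05 (limma) the numbers higher and lower were 5 and 2, against 16.4% and 16.9% of all genes. The factors Foxo1, Foxo3 and Foxo4 were among those not called, with log2 fold changes of -0.003, -0.02 and -0.06. The number higher was 1 without PD0332991 replicate 1 or 3 or vehicle replicate 1, and 2 without PD0332991 replicate 2 or vehicle replicate 3. It was 0 with spike-in centring, 1 with spike-in centring without vehicle replicate 1, and 2 with the replicate number as a block. Gadd45a, a growth-arrest and DNA-damage gene, averaged 1716 ± 36.7 with PD0332991 and 1263 ± 37.5 with vehicle (SD, n = 3 each, log2 fold change 0.44, limma adjusted p = 0.00132), and Ccng2, a cyclin of non-dividing cells, rose by 0.20 (limma adjusted p = 0.0191), a call lost with the mean of its probe sets (0.19, limma adjusted p = 0.0911). Cdkn1b, the CDK inhibitor p27, averaged 1580.5 ± 7.92 with PD0332991 and 2013 ± 52.8 with vehicle (SD, n = 3 each, log2 fold change -0.35, limma adjusted p = 0.00207), and its dimmer probe set gave -0.22 with overlapping groups. Bcl2l11, the pro-apoptotic BIM gene, fell by 0.25 on the log2 scale (limma adjusted p = 0.00959), and 2 further probe sets of it also gave -0.25, while the remaining 2, with overlapping groups, gave -0.07 and -0.08 and were not called. Neither of the 2 measured IGF2 mRNA-binding protein genes was called by limma (0 at an unadjusted p under 0.05), with log2 fold changes of 0.19 for Igf2bp1 and -0.01 for Igf2bp3.

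The remaining called genes of these lists, named after their values were seen, were Igf2r, Adam12, Grb14, Cited2 and Fbxo32, all higher, with log2 fold changes from 0.21 to 0.46. Of the 17 called genes named by rule, 6 kept their call without any 1 array, namely Bcl2l11, Cdkn1b, Ddit4, Eif4ebp2, Gadd45a and Ptpn1, and the other 11 lost it without at least 1 array (limma adjusted p up to 0.133). With spike-in centring 4 of the 17 stayed called, which were Bcl2l11, Cdkn1b, Eif4ebp2 and Htra1. With spike-in centring lacking vehicle replicate 1, 4 were called, which were Cdkn1b, Eif4ebp2, Gadd45a and Pik3r3, while Bcl2l11 (limma adjusted p = 0.0622) and Htra1 (limma adjusted p = 0.0800) were not.

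**Figure D4:**
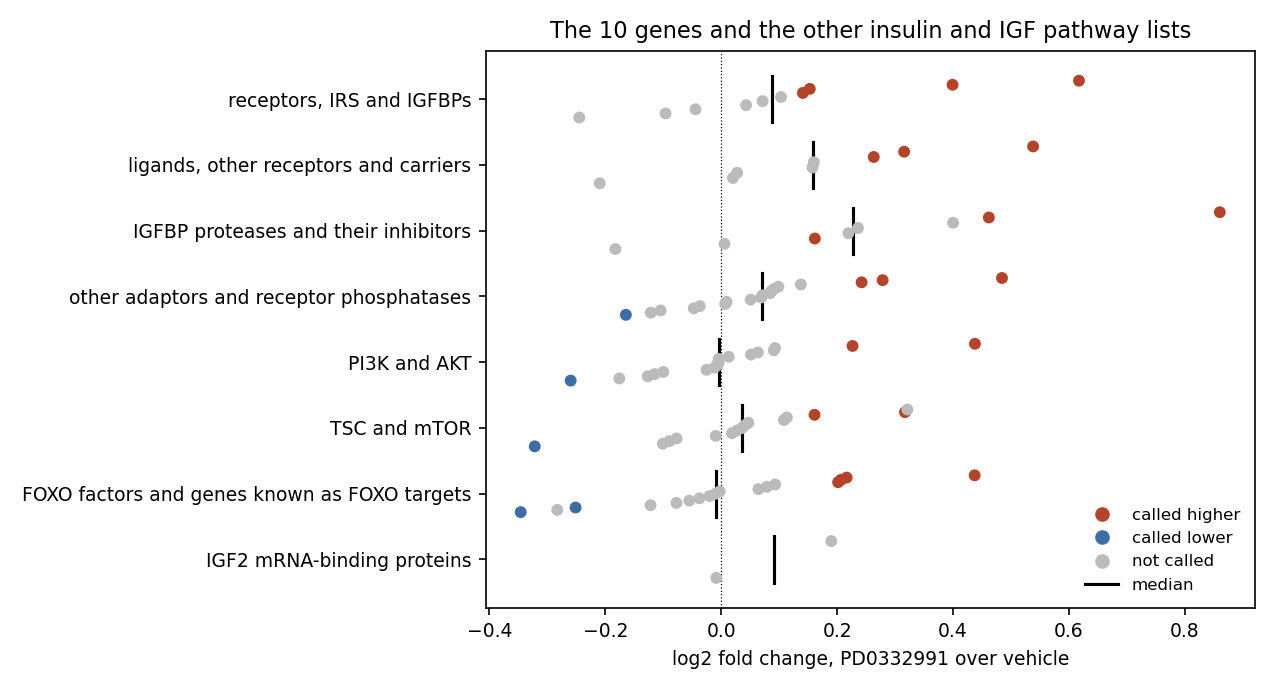
Log2 fold change (horizontal, PD0332991 over vehicle) of the 10 genes (top row) and of the measured genes of 7 other pathway lists, with 1 point per gene, red for called higher, blue for called lower and grey for not called. Black bars mark the medians, which run from -0.01 for the FOXO list to 0.23 for the IGFBP proteases.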

How the data were processed

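Total RNA was biotin-labelled and hybridized to Affymetrix mouse arrays, per the labels' protocols. The authors deposited a linear intensity for each of 45101 probe sets on every array. How probes were summarised and background was corrected is not given in the sources used here. With 3 arrays per group, their number limits the precision.

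Leaving out 64 control probe sets, the platform annotation gave 1 symbol to 34945 of 45037 probe sets, several to 932 and none to 9160. Each of the 18193 genes was represented by its probe set with the highest mean log2 value. Intensities were transformed to log2(intensity + 16), so folds of dim genes are understated, and compared with lmFit and eBayes of limma 3.58.1 (R 4.3.3), without a block or filter. Tests were two-sided, and genes with a Benjamini-Hochberg adjusted p under 0.05, adjusted across the 18193 genes, were called. A second fit took all probe sets. With 3 arrays against 3, an exact permutation test cannot go below p = 0.1. The fit was also run on simulated arrays with independent noise, which cannot show how array scaling affects the calls. Joins used Python 3.11.15 and pandas 2.3.3.

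Members, lists and alternatives were chosen with earlier results of these data known. Named list genes were the called genes with the smallest p, up to 2 per direction and list, or 2 genes where none was called. Adipocyte markers (4 of 6 measured) and basal epithelial markers (6 of 6) gave no limma call in either direction (0 at an unadjusted p under 0.05). Of all genes, 9.81% were called higher and 11.2% lower. Alternatives were a replicate block, other scalings, pseudocounts of 1 and 64, a filter on dim values, other probe-set rules, eBayes with trend and robust settings, each array left out, and an adjusted p threshold of 0.01.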

Additional observations from a re-analysis of the deposited data

How the results depend on the processing

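Igfbp7 kept its direction and its call under all 17 alternatives, with log2 fold changes from 0.36 (mean of probe sets, which includes 1 at the lower end of the scale) to 0.66 and limma adjusted p up to 0.0327. Igfbp3 lost its call under spike-in centring (0.27) and under spike-in centring without vehicle replicate 1 (0.35). The log2 fold changes of Insr and Igfbp5 were 0.042 and 0.083 with the mean of probe sets, 0.026 and 0.014 with spike-in centring, and 0.096 and 0.079 with spike-in centring lacking vehicle replicate 1, none called. Igfbp5 was also not called without probe sets with shared probes (0.025) or with a pseudocount of 1 (0.14). Without 1 array neither was called, at 0.14 to 0.18 for Insr and 0.12 to 0.17 for Igfbp5. Members called higher numbered 2 with the mean of probe sets, at a threshold of 0.01 or without any 1 array, and 1 with either spike-in centring, where 1 was lower with all arrays, and 5 with quantile normalization, which added Igfbp4. Signs of uncalled genes turned for Igf1r (-0.065 and -0.084 with spike-in centring without and with vehicle replicate 1, and -0.020 to 0.092 without 1 array, negative without vehicle replicate 1), Irs1 (-0.056, spike-in centring), Igfbp4 (-0.047 mean of probe sets, -0.024 spike-in centring), Igfbp6 (-0.092 to 0.044 without 1 array, positive without PD0332991 replicate 3) and Igf2bp3 (0.020 array median centring, 0.017 mean of probe sets, 0.030 quantile normalization, and -0.093 to 0.097 without 1 array), while the called Phlpp2 read 0.041 with the mean of probe sets. Member probe sets called higher numbered 7 with trend and robust settings, 8 with the filter, 7 with a pseudocount of 64 and 6 with quantile normalization. In the 7 lists, higher and lower calls were 2 and 3 with spike-in centring without vehicle replicate 1, 1 and 3 with all arrays, 3 and 2 at a threshold of 0.01, and 4 to 10 higher and 4 to 5 lower without 1 array, while lower calls were 10 with trend and robust settings and 11 with the filter. Over all genes, higher and lower calls were 240 and 1475 with spike-in centring, 412 and 1159 with it but lacking vehicle replicate 1, 708 and 995 at a threshold of 0.01, and 1096 to 1252 higher and 1326 to 1494 lower without 1 array. The cause of these changes was not tested.

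Arrays with the same replicate number did not deviate together (correlations of deviations of 0.008, -0.051 and 0.050). These values show no shared deviation, but cannot tell whether the samples were handled in pairs. With the replicate number as a block, 2 of the 10 genes were called higher (Insr at 0.15, limma adjusted p = 0.101, and Igfbp5 at 0.14, limma adjusted p = 0.112, were not), 8 of the 17 named list genes kept their call, the lists had 7 higher and 3 lower calls, and all genes 895 and 1152.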
